A study of Mus musculus with 8 samples.

Results

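Mitochondrial chaperones and proteases are the nucleus-encoded proteins that fold, refold and degrade proteins inside the organelle, and 10 of their genes were examined here in AML12 cells, a hepatocyte-derived mouse line. The genes were taken by symbol as members of the mitochondrial unfolded protein response: the chaperones Hspd1, Hspe1, Hspa9 and Trap1, and the proteases Lonp1, Clpp, Clpx, Afg3l2, Spg7 and Htra2. They are 10 of the 55401 genes measured, and all 10 were abundant enough to be tested. RNA-seq compared 4 control dishes with 4 dishes kept for 1 h in Opti-ELF-WMF, an extremely low-frequency weak magnetic field of 10 µT (100 mG at its peak), given as 4 ms pulses whose frequency stepped from 1 to 8 Hz over and over. Both groups came from 1 batch of cultured cells, grown by the study's methods with serum, dexamethasone and insulin-transferrin-selenite, and the control dishes stood in a separate incubator of the same type with the stimulator off, so the field and the incubator cannot be told apart. The sample labels do not say that the dishes were separate cultures, and the p-values then measure only the spread between these dishes, which may be technical.

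The mitochondrial unfolded protein response is a transcriptional program by which unfolded or unassembled proteins in the matrix lead the nucleus to make more of the chaperones and proteases that deal with them. In mammalian cells the transcription factors Atf5, Atf4, Ddit3 and Cebpb have been linked to it, while the heat shock factor Hsf1 also acts on the promoter that Hspd1 and Hspe1 share. Hepatocytes are rich in mitochondria and carry these proteins at high levels.

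The positions of the genes and their promoter sequences are given first, as background to the values, and no comparison below tested them. In GENCODE M21 on GRCm38, Hspd1 lies on chromosome 1 from 55077835 to 55088243 on the minus strand with 12 exons, and Hspe1 lies beside it from 55088132 to 55091307 on the plus strand with 4 exons. The pair is divergent, and exons of the genes on opposite strands share 112 bases. Of the 10 genes, 7 have a promoter in the RefSeq table used here (250 bases before to 50 after each start, 32851 windows in all), and Hspa9, Afg3l2 and Htra2 do not. Hspd1 has an inner RefSeq start at 55087932 and an outer one at 55088243, and Hspe1 starts at 55088148. The inner start of Hspd1 and the start of Hspe1 are 216 bases apart. Between these lies a run of heat shock elements, the binding motif of heat shock factors. It is shown because the genes on either side of it gave different values in the TPM as deposited, Hspd1 being higher in every exposed dish and Hspe1 overlapping throughout. Under the 3 other scalings used below Hspd1 overlapped too, and the ratio of Hspd1 over Hspe1 had an adjusted p of 0.229 by exact permutation. The stretch is chr1:55088053-55088082 on the plus strand of GRCm38.p6, and the capitals mark the 18 bases covered by the elements.
Hspd1 and Hspe1, shared promoter: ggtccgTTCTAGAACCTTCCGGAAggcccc
These 18 bases hold 3 overlapping matches, 1 of the letters GAANNTTC and 2 of TTCNNGAA (each motif reads the same on both strands). They lie 72 bases from the start of Hspe1 and 127 from the inner start of Hspd1. Of all promoter windows, 7.86% hold GAANNTTC, 8.52% hold TTCNNGAA and 1.32% hold both. Of the 7 genes only Hspe1 and Hspd1, the latter in the window of its inner start, hold both, from this 1 shared stretch. The window of the outer Hspd1 start holds neither, and Clpp holds TTCNNGAA alone.

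The promoter of Lonp1, the only protease that passed an unadjusted threshold below, is shown for contrast. It is chr17:56626904-56627153 on the minus strand, the 250 bases before the RefSeq start, and the capitals mark its 1 GC box (GGGCGG or its reverse complement).
Lonp1, promoter: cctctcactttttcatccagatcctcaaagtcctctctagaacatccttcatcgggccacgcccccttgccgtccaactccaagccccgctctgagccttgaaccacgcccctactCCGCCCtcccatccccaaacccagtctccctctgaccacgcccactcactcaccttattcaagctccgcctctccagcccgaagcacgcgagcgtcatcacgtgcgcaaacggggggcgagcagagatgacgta
Neither heat shock arrangement was found in this window. A GC box was found in 6 of the 7 genes (all but Clpp) and in 35.7% of all windows. The letters TGATGNAAT, a core of the element that C/EBP and ATF factors bind, were found in 0 of the 7 and in 0.965% of all windows. TGACGTCA, the cAMP response element, was found in Trap1 (1.79% of windows), the palindromic site of NRF1 in Hspd1 and Spg7 (4.6%), and CCAAT in Hspd1 and Clpx (37.4%). In Hspd1, the NRF1 site and CCAAT were found only in the window of the outer start, not in that of the inner start.

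Each dish was deposited as TPM, a measure of transcript abundance that allows for transcript length and sums to the same total in every dish. Such values hold no record of how many reads were sequenced, so library depth is unknown and no counting error could be attached to a value. Between 19386 and 20114 genes were above 0 in each dish. Hepatocyte markers were present in all dishes at mean TPM of 2305 for the keratin Krt8, 838 for Trf, 193 for Hnf4a and 52.4 for Alb, though Apoa1 had a mean of only 4.16. Of these 7 markers (with Ttr), Krt8 and Krt18 had log2 differences of 0.07 and 0.09 and Alb of -0.15 at an unadjusted p under 0.05, and under the 3 scalings used below Krt8 was at 0.037 to 0.041, Krt18 at 0.057 to 0.062 and Alb at -0.18. Markers of macrophages, endothelium and stellate cells were at or near 0, with Ptprc at most 0.2, Adgre1 at 0, Pecam1 at most 0.08 and Des at most 0.16. All 13 mitochondria-encoded subunits were lower in exposed dishes at an unadjusted p under 0.05, beside 3.65% of all genes tested. All mitochondria-encoded genes together held 8.94% ± 0.336 (SD, n = 4) of TPM in control and 7.04% ± 0.764 (n = 4) in exposed dishes, without overlap. Among the 13 subunits mt-Co1, a subunit of cytochrome oxidase, was at 14593 ± 319.9 and 11443 ± 980.9 TPM, and mt-Cytb at 6440.1 ± 124 and 5074 ± 440.5. The highest TPM was that of mt-Atp8, at 37359 ± 3153 and 30057 ± 4237, while mt-Atp6 was at 819 ± 39.7 and 622 ± 165. How reads were divided between mitochondria-encoded genes was not analysed, so the TPM of mt-Atp8 and its part in the summed share are uncertain. Since TPM has a fixed total, every other gene, the 10 genes here included, is scaled up where these transcripts are fewer, and for that reason the differences of the 10 genes are also given under 3 other scalings. In bulk RNA, fewer cells of a kind and less RNA per cell cannot be told apart.

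The 10 genes spanned a wide range of abundance in AML12 cells. Over the 8 dishes Hspd1 had the highest mean TPM (771.8), followed by Hspa9 (472), Hspe1 (391), Lonp1 (124), Htra2 (109.9), Clpp (76.3), Trap1 (74.7), Spg7 (64.5), Afg3l2 (43.3) and Clpx (28.7). Neighbours in this order did not overlap across dishes except Clpp and Trap1, of which Clpp was the higher in 5 of 8 dishes. Hspd1, Hspa9 and Hspe1 made up 35.8%, 21.9% and 18.1% of the summed TPM of the 10 genes, and Hspd1 stood above 98.6% of the genes tested. Clpx, the least abundant, stood above 57.8% of them.

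After 1 h of Opti-ELF-WMF the chaperones Hspd1 and Hspa9 were each about 6.88% higher than in control dishes, with no overlap between the groups, while Hspe1, the partner of Hspd1, differed by 0.019%. Among the proteases, Lonp1 was 6.35% higher with some overlap, and Clpp, Clpx, Afg3l2 and Htra2 were higher on average with wide or overlapping spreads. Spg7 differed by 0.062%. None of these differences passed the adjusted threshold, and none of the 12122 genes tested did (limma on log2(TPM + 1), Benjamini-Hochberg adjusted p under 0.05), against 1894 genes (15.6%) at an unadjusted p under 0.05. Differences below are on the log2(TPM + 1) scale, exposed minus control.

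Hspd1 encodes the HSP60 chaperonin, the folding chamber of the matrix. Its TPM was 770.0, 745.1, 738.7 and 730.6 in control dishes 1 to 4 and 816.1, 787.9, 810.8 and 775.0 in exposed dishes 1 to 4. Every exposed dish lay above every control dish, the closest pair being exposed dish 4 and control dish 1. The means were 746 ± 17.0 and 797 ± 19.3 (SD, n = 4 each), a log2 difference of 0.10 (SE 0.026, 95% interval 0.038 to 0.154, limma adjusted p = 0.142).

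Hspe1 encodes HSP10, the lid that closes the HSP60 chamber. Its TPM was 386.7, 387.4, 397.4 and 392.7 in control dishes and 393.6, 386.8, 390.7 and 393.4 in exposed dishes. The groups overlapped throughout, and this gene had the smallest spread between exposed dishes of the 10, with a coefficient of variation of 0.818%. The means were 391 ± 5.00 and 391 ± 3.20 (n = 4 each), a log2 difference of 0.00033 with a 95% interval from -0.045 to 0.045 (limma adjusted p = 0.996). The upper bound of that interval lay below the fitted difference of Hspd1, though the intervals of the genes overlapped between 0.038 and 0.045. Setting the intervals side by side does not test Hspd1 against Hspe1, for which the ratio within each dish is given below.

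Hspa9 encodes the mitochondrial HSP70, mortalin, which pulls precursors through the inner membrane and folds them in the matrix. It lies on chromosome 18 from 34937414 to 34954357. Its TPM was 470.9, 456.5, 446.5 and 451.4 in control dishes and 485.2, 493.1, 499.3 and 473.3 in exposed dishes. As for Hspd1, the groups did not overlap and exposed dish 4 came closest to control dish 1. The means were 456 ± 10.5 and 488 ± 11.2 (n = 4 each), a log2 difference of 0.10 (SE 0.026, 95% interval 0.038 to 0.154, limma adjusted p = 0.142).

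Trap1 encodes the HSP90 of the mitochondrial matrix and lies on chromosome 16 from 4039971 to 4077827. Its TPM was 73.1, 72.9, 73.2 and 75.2 in control dishes and 71.7, 76.5, 77.7 and 77.2 in exposed dishes. Exposed dish 1 was the lowest of all 8, and the other exposed dishes were the highest. The means were 73.6 ± 1.07 and 75.8 ± 2.78 (n = 4 each), with a log2 difference of 0.04 (95% interval -0.030 to 0.112, limma adjusted p = 0.588). Without exposed dish 1 the difference was 0.067.

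**Figure D1:**
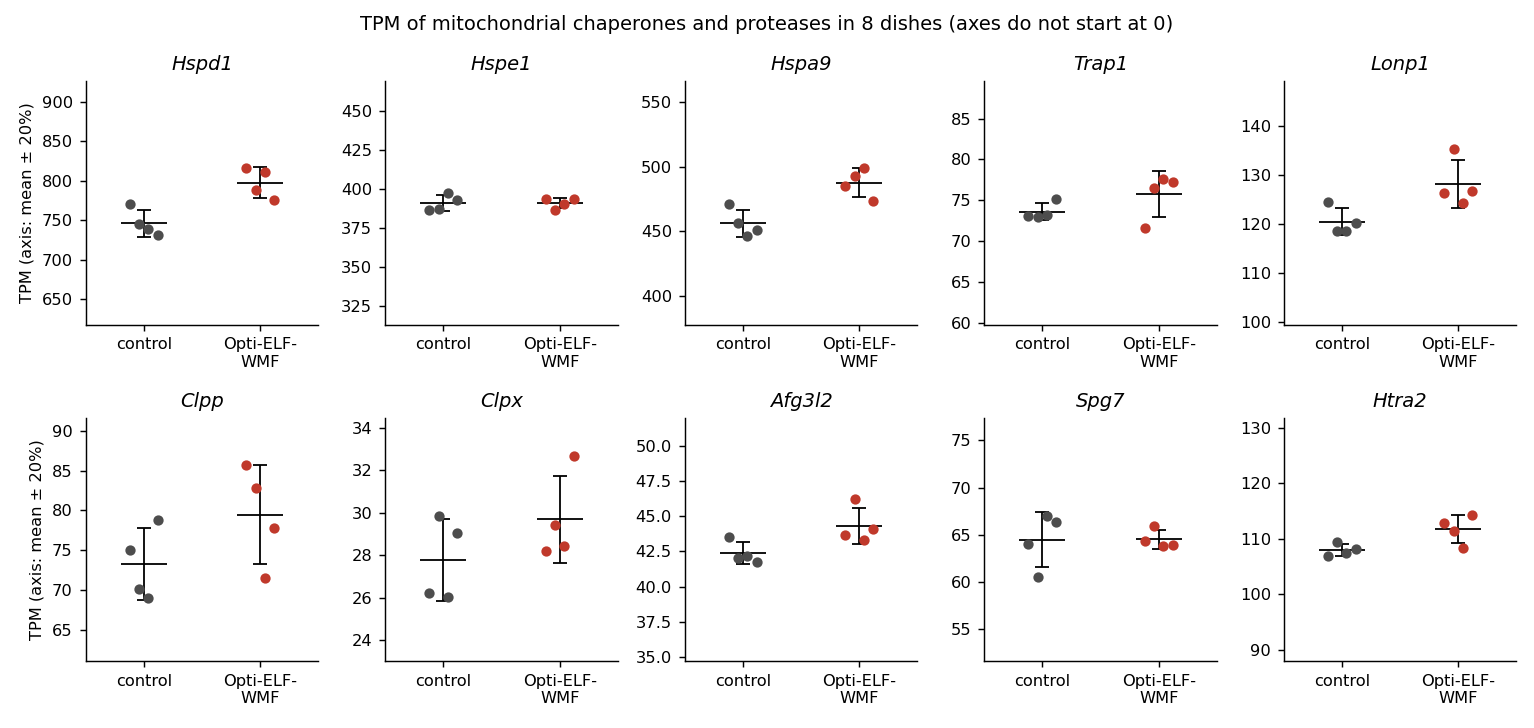
TPM of the 10 genes in each of 4 control (grey) and 4 Opti-ELF-WMF (red) dishes, left to right in replicate order, with the mean and SD (n = 4) as bars. Each vertical axis spans the gene's mean ± 20% and does not start at 0. Hspd1 and Hspa9 are the only panels in which every exposed dish lies above every control dish, and the Hspe1 panel is flat.

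Lonp1 encodes the ATP-dependent Lon protease, which degrades misfolded and oxidised matrix proteins, and lies on chromosome 17 from 56614297 to 56626887. Its TPM was 124.5, 118.7, 118.7 and 120.2 in control dishes and 126.4, 135.3, 124.2 and 126.7 in exposed dishes. Control dish 1 was slightly above exposed dish 3, and exposed dish 2 stood above all others. The means were 121 ± 2.78 and 128 ± 4.86 (n = 4 each), a log2 difference of 0.09 (SE 0.032, 95% interval 0.016 to 0.159, limma adjusted p = 0.227).

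Clpp and Clpx encode the peptidase barrel and the ATP-driven unfoldase of the ClpXP protease. Clpp, on chromosome 17 from 56990305 to 56996188, had a TPM of 75.04, 70.1, 69.0 and 78.8 in control dishes and 85.7, 82.8, 71.5 and 77.8 in exposed dishes. Its mean difference was the largest of the 10 genes (8.46%), but exposed dishes 3 and 4 fell within the control range, and the log2 difference of 0.11 had a 95% interval from -0.022 to 0.250 (limma adjusted p = 0.404). Clpx, on chromosome 9 from 65294260 to 65330658, had a TPM of 26.2, 29.9, 26.02 and 29.03 in control dishes and 28.2, 29.4, 28.4 and 32.7 in exposed dishes. Only exposed dish 4 was above all control dishes, and the log2 difference of 0.09 had a 95% interval from -0.043 to 0.229 (limma adjusted p = 0.508). Without exposed dish 4 the difference of Clpx was 0.047. These were the most variable of the 10 genes, with coefficients of variation of 6.19% and 7.01% among control dishes.

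Afg3l2 and Spg7 (paraplegin) encode the subunits of the m-AAA protease, which removes unassembled proteins from the inner membrane and matures some matrix proteins. Afg3l2, on chromosome 18 from 67404764 to 67449172, had a TPM of 43.5, 42.0, 42.2 and 41.7 in control dishes and 43.7, 46.2, 43.3 and 44.1 in exposed dishes. Control dish 1 alone reached into the exposed range, and the log2 difference was 0.06 (95% interval -0.0078 to 0.134, limma adjusted p = 0.378). Spg7, on chromosome 8 from 123062942 to 123097760, had a TPM of 64.0, 60.5, 67.0 and 66.4 in control dishes and 64.3, 66.0, 63.8 and 63.9 in exposed dishes. All exposed dishes lay inside the control range, and the log2 difference was 0.0019 (95% interval -0.078 to 0.082, limma adjusted p = 0.989).

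Htra2 encodes a serine protease of the intermembrane space that is released in apoptosis, and lies on chromosome 6 from 83051266 to 83055273. Its TPM was 106.8, 109.4, 107.4 and 108.1 in control dishes and 112.9, 111.5, 108.4 and 114.4 in exposed dishes. Exposed dish 3 fell between control dishes and the other exposed dishes lay above them. The log2 difference was 0.05 (95% interval -0.0069 to 0.106, limma adjusted p = 0.384). The exons of Htra2 share 753 bases with Aup1, a gene on the opposite strand with a mean TPM of 286.8, and 535 bases with Loxl3 (6.12). The library kit keeps strand, but the strand setting used in counting is not given in the sources used here, and reads over the shared bases may be counted to either gene if strand was not used. The same limit holds for the 112 exon bases that Hspd1 and Hspe1 share on opposite strands, and so for their ratio below.

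Counted together, 3 of the 10 genes (Hspd1, Hspa9 and Lonp1) were higher at an unadjusted p under 0.05, beside 12.0% of the 12122 genes tested, and 0 were lower, beside 3.65%. All 10 differences were positive, beside 63.7% of all genes. The exposed dishes lay wholly above the control dishes for 2 genes (8.01% of all genes) and wholly below for 0 (1.86%). The median log2 difference was 0.075 over the 10 genes, 0.068 over the chaperones, 0.075 over the proteases and 0.026 over all genes tested. Without exposed dish 3 the count at an unadjusted p under 0.05 was 5, Clpp and Htra2 being added (11.0% of all genes), and the count without overlap was 5 (10.8%). Without control dish 1 the count without overlap was 4 (10.7%). Shares without overlap are higher with 3 dishes against 4, so these are not to be set against the 8.01%.

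The summed TPM of the 10 genes was 2140.9, 2092.5, 2086.0 and 2094.1 in control dishes and 2227.8, 2215.3, 2218.1 and 2178.4 in exposed dishes. The groups did not overlap, and the sum was 5.06% higher in exposed dishes (2103 ± 25.3 and 2210 ± 21.7, n = 4 each). The chaperone sum was 5.10% and the protease sum 4.94% higher. The protease sum overlapped, at 439.7 in exposed dish 3 against 444.2 in control dish 4.

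Scaling moved all of these values downward. Taking the median of ratios to each gene's geometric mean over the dishes as the size of each library, the difference of Hspd1 was 0.066, that of Hspa9 0.066 and that of Lonp1 0.058. Upper-quartile scaling gave 0.062, 0.062 and 0.054, and rescaling after removal of the mitochondria-encoded genes gave values between these. Over the 3 scalings Trap1 was at 0.0073 to 0.012, Clpp at 0.081 to 0.085, Clpx at 0.060 to 0.064, Afg3l2 at 0.030 to 0.035 and Htra2 at 0.016 to 0.020. Hspe1 and Spg7 turned slightly negative, with Hspe1 between -0.033 and -0.029 and Spg7 between -0.031 and -0.027, and the other 8 genes stayed positive under the 3 scalings, beside 49.2%, 47.0% and 49.1% of all genes. Exposed and control dishes then overlapped for every one of the 10 genes, where 3.80%, 3.37% and 3.83% of all genes had exposed dishes wholly above control dishes. An unadjusted p under 0.05 was left for Hspa9 under all 3 scalings, and for Hspd1 only after removal of the mitochondria-encoded genes. The share of all genes higher at that threshold was then 5.55%, 4.85% and 5.68%, and the genes that passed, 76.6% of them higher in the TPM as deposited, split to 47.1%, 42.3% and 49.96% higher. Relative to the median of all genes, the difference of Hspd1 was 0.070 as deposited and 0.067 to 0.068 after scaling.

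**Figure D2:**
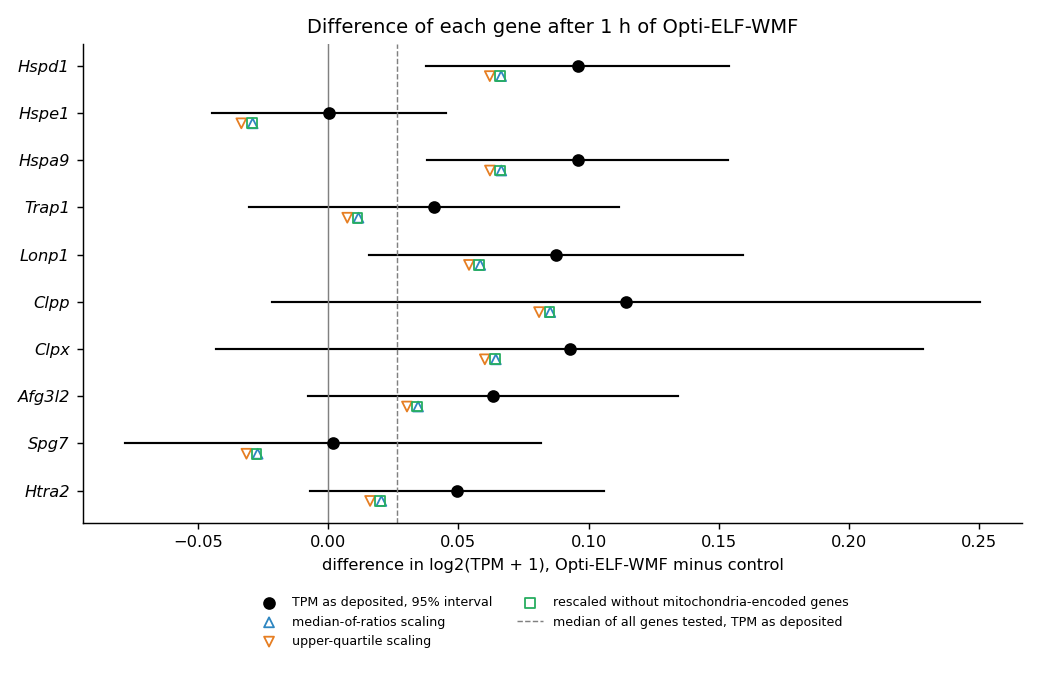
Log2(TPM + 1) difference between exposed and control dishes for each of the 10 genes, with the 95% interval from limma (black, n = 4 dishes per group) and the same difference under 3 other scalings (open symbols). The dashed line is the median of all genes tested, 0.026. The intervals of Hspd1, Hspa9 and Lonp1 lie to the right of 0, and the open symbols of Hspe1 and Spg7 lie to its left.

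Hspd1 has 1 measurable near-identical copy elsewhere in the genome, the processed pseudogene Hspd1-ps3, which matches its transcript at 99.0% of 1722 aligned bases and had a mean TPM of 6.09. With it added, Hspd1 was 752 ± 16.6 in control and 804 ± 19.2 TPM in exposed dishes (n = 4 each). The copy of Hspa9 had a mean TPM of 0.02. How reads of Hspe1 that match more than 1 place were assigned was not analysed here, and its level is uncertain to that extent.

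Ratios of partner genes were formed within each dish, where the scaling of TPM cancels, and compared by a two-sided exact permutation test over the 70 assignments of 8 dishes, whose smallest possible p is 0.0286. Hspd1 over Hspe1, chamber over lid, was 1.99, 1.92, 1.86 and 1.86 in control dishes and 2.07, 2.04, 2.08 and 1.97 in exposed dishes. The exposed dishes were higher except that dish 4 fell just under control dish 1, and the log2 difference of 0.10 (SE 0.029) gave an exact p of 0.0571, adjusted to 0.229 over 4 ratios. Leaving out each dish in turn gave log2 differences of 0.083 to 0.12. The exact p was 0.0286 without control dish 1, 0.0571 without exposed dish 4 and 0.0857 without any 1 of the other 6. Control dish 1 was the only control dish that overlapped, so the groups separated once it was left out. The p of 0.0286 is then the smallest possible with 1 dish fewer and follows from the choice of dish.

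The remaining ratios overlapped widely. Clpp over Clpx was 2.64 ± 0.215 in control and 2.69 ± 0.295 in exposed dishes (n = 4 each, exact p = 0.886, adjusted p = 0.886), and Afg3l2 over Spg7 was 0.658 ± 0.034 and 0.687 ± 0.010 (n = 4 each, exact p = 0.257, adjusted p = 0.514). In the latter, control dishes 3 and 4 were at 0.63 and control dishes 1 and 2 at 0.68 and 0.69, while the exposed dishes lay between 0.68 and 0.70. Hspa9 over Grpel1, the nucleotide exchange factor that resets mitochondrial HSP70, was 15.6 ± 0.282 and 15.7 ± 0.390 (n = 4 each, exact p = 0.657, adjusted p = 0.876). With 4 dishes a group, these tests do not show that the ratios were equal.

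**Figure D3:**
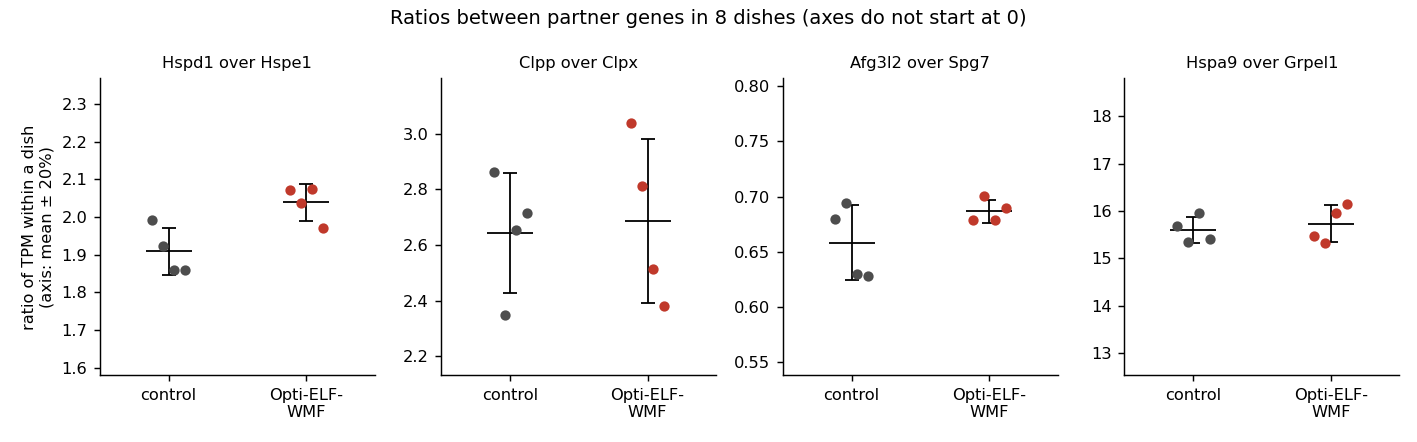
Ratio of TPM within each dish for 4 pairs of partner genes, in 4 control (grey) and 4 Opti-ELF-WMF (red) dishes, with the mean and SD. Each axis spans the mean ± 20% and does not start at 0. Only in Hspd1 over Hspe1 do the groups come close to separating, at 1.91 ± 0.063 and 2.04 ± 0.049.

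Across the 8 dishes, Hspa9 followed Hspd1 closely in log2(TPM + 1), with Pearson's r = 0.933, the rank of 30 among all genes tested. The r to Hspd1 was 0.650 for Lonp1, 0.638 for Afg3l2, 0.466 for Htra2, 0.465 for Clpp, 0.186 for Trap1, 0.10 for Clpx, -0.129 for Spg7 and -0.159 for Hspe1. The genes outside the lists most like Hspd1 were Psmd12 (0.976), Hdac2 (0.967), Cdv3 (0.963), Isg20l2 (0.956) and Myl12a (0.955). These values describe 8 points that share a scaling and fall into the 2 conditions, and 4 dishes within a condition are too few to separate the conditions' part from the rest.

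Co-chaperones of the mitochondrial machines showed 1 of 8 genes higher at an unadjusted p under 0.05 and 0 lower, beside the 12.0% and 3.65% of all genes that hold for each list that follows, with a median log2 difference of 0.049. That gene was Clpb, a disaggregase of the intermembrane space that was listed with the co-chaperones but is not one itself. It was at 51.3 ± 2.81 in control and 58.8 ± 2.17 TPM in exposed dishes (n = 4 each), a log2 difference of 0.19 (limma adjusted p = 0.122) without overlap. Dnajc19, a J-protein of the import motor and the most abundant of the list, was at 54.2 ± 3.81 and 58.4 ± 6.50 TPM (limma adjusted p = 0.570). Of 15 other mitochondrial peptidases and scaffolds, 4 were higher and 0 lower at the same threshold, with a median of 0.046. Phb2, a prohibitin that holds the m-AAA protease in a ring and the most abundant of the list, was at 386 ± 8.87 and 411 ± 14.2 TPM (log2 difference 0.09, limma adjusted p = 0.187). Stoml2, a scaffold of inner membrane proteases, was at 84.2 ± 2.39 and 91.3 ± 4.44 TPM (0.11, limma adjusted p = 0.197). Under the 3 scalings 1 of the 15 was higher at that threshold, Pitrm1 under the first 2 and Phb2 after removal of the mitochondria-encoded genes, beside 5.55%, 4.85% and 5.68% of all genes. Of the co-chaperone list, Clpb passed it under each scaling, at 0.16 to 0.17. Without exposed dish 4 the count in the co-chaperone list, in either direction, was 2, beside 1438 of the 12122 genes tested higher and 478 lower. The difference of Dnajc19 ran from 0.037 without exposed dish 1 to 0.16 without exposed dish 4.

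Of 11 regulators linked to the response, 2 were higher and 1 lower at an unadjusted p under 0.05, with a median log2 difference of 0.051. Trib3, a target of Ddit3 and Atf4, was at 20.99 ± 0.993 TPM in control and 23.1 ± 0.750 in exposed dishes (log2 difference 0.14, limma adjusted p = 0.190), and Atf4 itself was at 300.3 ± 3.72 and 312.7 ± 3.17 (0.06, limma adjusted p = 0.217). Dele1, which carries mitochondrial stress to the kinase Eif2ak1, was at 39.7 ± 2.39 and 34.9 ± 2.29 TPM (-0.18, limma adjusted p = 0.175). Ubl5, a ubiquitin-like factor of the response in worms and the most abundant of the list, was at 310.3 ± 14.1 and 323 ± 6.06 TPM (limma adjusted p = 0.422). Beside these, the log2 differences of Atf5, Ddit3 and Hsf1 were 0.05, 0.06 and 0.03, and that of Cebpb was -0.23, with limma adjusted p of 0.513, 0.596, 0.787 and 0.570. Under the 3 scalings Trib3 (0.10 to 0.11) and Dele1 (-0.21) passed the unadjusted threshold and Atf4, at 0.024 to 0.029, did not.

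Cytosolic heat shock chaperones, which share heat shock factors with Hspd1 and Hspe1, showed 4 of 11 genes higher and 0 lower at an unadjusted p under 0.05, with a median log2 difference of 0.034. Hspa4, a nucleotide exchange factor of HSP70, was at 199 ± 4.51 and 218 ± 3.64 TPM (0.13, limma adjusted p = 0.122). Hsp90ab1, the constitutive HSP90, was at 2102 ± 21.6 and 2247 ± 34.2 (0.10, limma adjusted p = 0.122), and Hspa8, the constitutive HSP70 and the most abundant of the list, at 2607 ± 43.1 and 2727 ± 44.6 (0.07, limma adjusted p = 0.211). The heat-inducible Hspa1a was at 4.20 ± 0.355 and 3.84 ± 0.381 TPM (-0.11, limma adjusted p = 0.584). Under each of the 3 scalings 2 of the 11 were higher at that threshold, Hspa4 at 0.10 and Hsp90ab1 at 0.062 to 0.067, and Hspa8 was at 0.031 to 0.036. Of 13 chaperones of the endoplasmic reticulum, 1 was higher and 0 lower, with a median of 0.022, and 0 passed under the scalings. Without exposed dish 4 the count in either direction was 4, beside 1438 of the 12122 genes tested higher and 478 lower. It was 0 without control dish 1 or 3 or without exposed dish 1 or 2. Under those omissions 1066 to 1625 of all genes were higher and 330 to 513 lower. With all dishes, the ER chaperone that passed was Dnajb11, at 102 ± 2.02 and 108 ± 3.33 TPM (0.08, limma adjusted p = 0.251), while Hspa5, the most abundant, was at 950.3 ± 16.3 and 967 ± 17.6 (0.03, limma adjusted p = 0.641). The differences between these lists and the 10 genes were not tested.

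**Figure D4:**
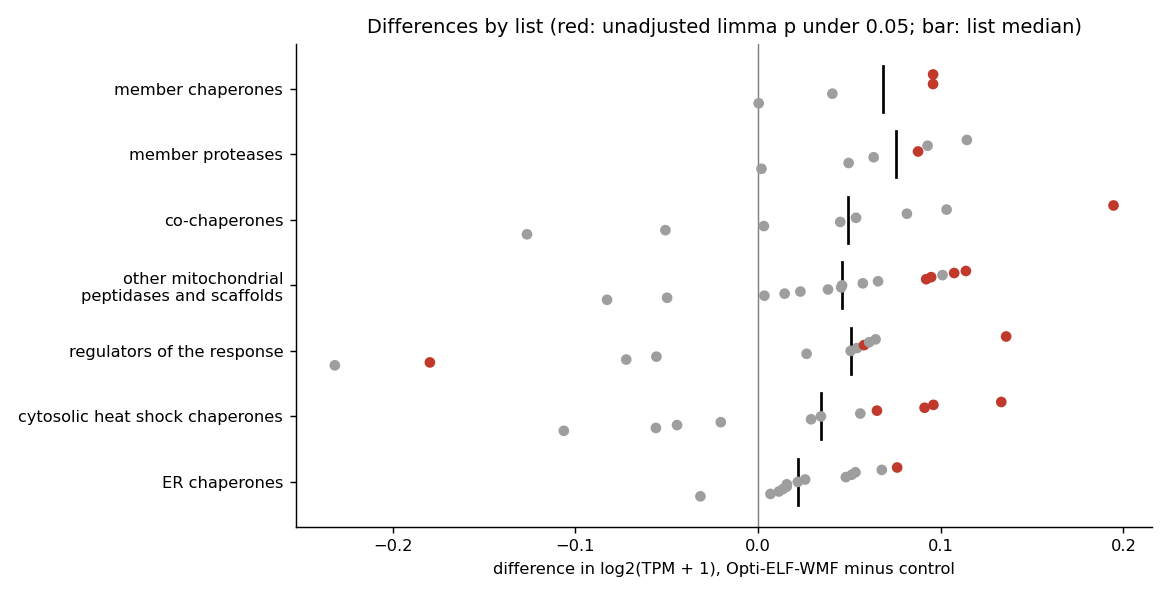
Log2(TPM + 1) difference between exposed and control dishes (n = 4 each) for every gene of the member chaperones and proteases and of 5 other lists, with list medians as bars and genes with an unadjusted limma p under 0.05 in red. The medians run from 0.022 for ER chaperones to 0.075 for the proteases, and the red points of all lists but the regulators lie to the right of 0.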

How the data were processed

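AML12 RNA was sequenced by the authors after stranded, poly(A)-selecting library preparation, and the deposited tables hold 1 TPM value per gene and dish. The submitters' processing notes name Trimmomatic 0.39, STAR 2.7.4a and RSEM 1.3.3 and the mouse build mm10. The annotation and strand setting are not given in the sources used here. Every column belonged to 1 labelled sample. The 10 genes and all other lists were chosen with earlier results of these data known.

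Genes with TPM of at least 1 in at least 4 of 8 samples were fitted on log2(TPM + 1), which understates changes of low genes, with limma 3.58.1 (eBayes with a trend, two-sided) in R 4.3.3, and p-values were adjusted by Benjamini-Hochberg over 12122 genes. Ratios were compared by exact permutation and adjusted over 4. The fit was tested on simulated data. Count tests were not run, because TPM is not a count. Gene positions were read from GENCODE M21 (GRCm38), where 55141 of 55401 identifiers were found, promoters from RefSeq (GRCm38.p6), and copies of Hspd1 and Hspa9 from BLAST 2.17.0 (at least 90% identity over at least 80% of the copy).

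Every one of the 10 genes is named. Of each other list, the genes named are the most abundant and, in each direction, up to 2 of lowest p-value among those with an unadjusted p under 0.05. The 5 genes most like Hspd1 were taken by Pearson's r. Other genes were named after their values were seen. Other settings tried were the pseudocount, abundance filter, scaling, limma trend, replicate block and omission of single dishes. Adding near-identical copies was chosen after seeing the data. One locus is not reported here.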

Additional observations from a re-analysis of the deposited data

Results flagged for a closer look

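Of 68 groups of 4 dishes, 2 held a dish far from the others, where chance alone would give about 3.4 (1 in 20). Trap1 was at 75.19 TPM in control dish 4, against 72.91 to 73.2 in the other control dishes. The summed TPM of the 10 genes was 2141 in control dish 1, against 2086 to 2094 in the others.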

How the results depend on the processing

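The differences of Hspd1, Hspa9, Trap1, Lonp1, Clpp, Clpx, Afg3l2 and Htra2 stayed positive under all alternatives run, and no adjusted p of the 10 genes went below 0.135 (Hspa9) or 0.137 (Hspd1). Under median-of-ratios scaling, upper-quartile scaling and rescaling without mitochondria-encoded genes, respectively, Hspe1 was at -0.029, -0.033 and -0.029, Spg7 at -0.027, -0.031 and -0.028, Hspa5 at -0.0036, -0.0080 and -0.0040, the median of the 10 genes at 0.046, 0.042 and 0.046, the genes without overlap at 0, 0 and 0, and the summed difference at 62.8, 56.2 and 67.4 TPM. The count of the 10 at an unadjusted p under 0.05 was 1 under each of the first 2 scalings, beside 5.55% and 4.85% of all genes higher. It was 5 when any TPM above 0 was tested, where 1733 of 25413 genes were higher. Genes with an adjusted p under 0.05 numbered 1 when TPM of at least 1 was asked of every dish, 1 under each of the first 2 scalings, and 1 without the trend. The cause was not tested.

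Leaving out each dish in turn gave Hspe1 from -0.0050 to 0.0080, Spg7 from -0.028 to 0.020 and the median from 0.056 to 0.079. Of the 10 genes, 2 to 5 were higher at an unadjusted p under 0.05, beside 1066 to 1625 of 12122 genes. The count without overlap was 2 to 5, beside 10.7% of all genes without control dish 1 and 10.8% without exposed dish 3. That share was not computed for the other omissions. The summed difference was 100.6 to 119 TPM, with 0 to 2 adjusted calls (2 without control dish 2, 1 without control dish 3). Log2 ratio differences were 0.083 to 0.12 for Hspd1 over Hspe1 and 0.041 to 0.089 for Afg3l2 over Spg7. For Clpp over Clpx they were -0.041 to 0.076 (negative without control dish 2, exposed dish 1 or exposed dish 2). For Hspa9 over Grpel1 they were -0.0012 to 0.024 (negative without exposed dish 4). Dishes with the same number did not deviate together (r from -0.042 to 0.026). With the replicate block 4 of the 10 genes were higher at an unadjusted p under 0.05 (Clpp being added), with 0 adjusted calls. Of the 12122 genes tested, 1430 were then higher and 459 lower at that threshold. TPM keeps no depth, so no counting error could be given.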
